A study of Mus musculus with 10 samples.

Results

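The interleukin-1 (IL-1) family genes examined here are *Il1a*, *Il1b*, *Il1rn*, *Il1r1*, *Il1r2*, *Il1rap*, *Il18* and *Il18bp*, which are 8 of the 55487 genes in the count table. They were found by gene name. All 8 passed the filter on low counts (CPM, counts per library put on a common total, above 1 in 3 or more libraries), as did 13740 genes in all. The 8 genes were chosen by their measured values in the comparison described here, so the comparison is given for them as a description without a test.

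The cells came from spinal cords of 5 male mice with experimental autoimmune encephalomyelitis (EAE), an immunization model of multiple sclerosis, at the peak of disease. The mice were of C57BL/6 background and Arg1tm1Lky genotype, a reporter allele by which cells that use *Arg1* also make yellow fluorescent protein (YFP). The methods give an age of 8 to 12 weeks for the animals of the study. From each mouse (m2, m6, m234, m235 and m236), 200000 YFP+ cells (ARG1+) and 100000 YFP- cells (ARG1-) went into separate libraries, so both groups carried the reporter and the disease and came from the same 5 animals. Both were gated as viable CD3-Ly6G-CD45+CX3CR1+ cells, a gate that takes in monocyte-derived cells, microglia and macrophages of the borders of the central nervous system alike. The library totals were 28870482 to 33826355 counts in ARG1+ cells and 28212174 to 35455643 in ARG1- cells, apart from the ARG1- library of m234 with 8396863. *Arg1*, which checks the sort, had a mean level of 813 ± 174 CPM (SD, n = 5) in ARG1+ cells against 18.4 ± 4.95 CPM in the ARG1- fraction. The genes of the gate were less even, with *Cx3cr1* at 139 CPM in ARG1+ against 281 CPM in ARG1- cells and *Ptprc* (CD45) at 622 and 726 CPM, while *Cd3e* and *Ly6g* averaged at most 0.112 CPM in either group.

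IL-1α and IL-1β are cytokines that act on the same receptor, a pair of the binding chain IL1R1 and the accessory chain IL1RAP, which passes the signal on through MYD88 to NF-κB. Several brakes act on this step. The receptor antagonist encoded by *Il1rn* occupies IL1R1 without a signal, and IL1R2 is a decoy that binds IL-1 and the accessory chain but has no signalling domain. IL-18 is a relative of IL-1β that is also cut by caspase-1, and the binding protein encoded by *Il18bp* holds it in solution. In EAE, myeloid cells that enter the spinal cord are a known source of IL-1β.

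*Il1r2* was the member with the widest difference between the sorted cells, at a level 4.46-fold lower in ARG1+ than in ARG1- cells, while its neighbour *Il1r1* was 1.95-fold higher. The ligands *Il1b* and *Il1a*, the antagonist *Il1rn* and the accessory chain *Il1rap* overlapped between the groups, and *Il1b* had nearly equal means. *Il18bp* was higher and *Il18* lower in ARG1+ cells of each animal, though their groups also overlapped. In bulk samples such as these, fewer cells of a type and less RNA per cell cannot be told apart.

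The genes of the main contrasts lie in clusters, and the stretches before their starts are shown because the neighbours *Il1r1* and *Il1r2* differed in opposite directions while the fitted log2 differences of the neighbours *Il1a* and *Il1b* were at most 0.29. *Il1a* (ENSMUSG00000027399, chr2:129299610-129309972, minus strand, GRCm38) and *Il1b* (ENSMUSG00000027398, chr2:129364570-129371139, minus strand) are 54597 bases apart. *Il1r2* (ENSMUSG00000026073, chr1:40074079-40125231, plus strand) ends 99848 bases before *Il1r1* (ENSMUSG00000026072, chr1:40225080-40317257, plus strand) begins. The sequences are RefSeq promoter windows of GRCm38.p6, printed from 5′ to 3′ in the direction of the gene, and hold no annotated exon. For *Il1a*, *Il1b* and the upstream start of *Il1r1*, the 250 bases before the start are given (chr2:129309973-129310222, chr2:129371140-129371389 and chr1:40224830-40225079). For *Il1r2*, the window (chr1:40085843-40086092) lay inside the span of the gene given above. It overlapped exons of another *Il1r2* transcript and of an antisense gene, so only the 133 bases between them are given (chr1:40085852-40085984). Unlike the other 3 sequences, these bases do not reach the start. Capitals mark matches to the motifs searched.
Il1a: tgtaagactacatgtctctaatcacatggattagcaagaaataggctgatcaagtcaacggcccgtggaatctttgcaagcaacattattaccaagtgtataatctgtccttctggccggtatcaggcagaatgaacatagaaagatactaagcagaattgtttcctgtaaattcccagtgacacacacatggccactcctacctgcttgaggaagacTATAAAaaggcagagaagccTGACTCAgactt
Il1b: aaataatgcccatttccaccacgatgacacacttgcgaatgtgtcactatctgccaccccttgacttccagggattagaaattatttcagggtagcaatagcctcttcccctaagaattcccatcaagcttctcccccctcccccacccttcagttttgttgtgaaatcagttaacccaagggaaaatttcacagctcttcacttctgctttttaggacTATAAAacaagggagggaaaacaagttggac
Il1r1: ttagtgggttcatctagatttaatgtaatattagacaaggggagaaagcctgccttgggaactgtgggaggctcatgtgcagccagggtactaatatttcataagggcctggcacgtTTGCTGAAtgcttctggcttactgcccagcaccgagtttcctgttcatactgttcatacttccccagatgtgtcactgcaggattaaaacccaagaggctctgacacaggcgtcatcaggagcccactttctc
Il1r2: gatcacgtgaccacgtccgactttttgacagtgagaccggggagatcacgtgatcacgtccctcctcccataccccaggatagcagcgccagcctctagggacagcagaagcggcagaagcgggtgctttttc

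Both ligand windows held the TATA box (TATAAA), at 32 to 27 bases before the start of *Il1a* and at 31 to 26 bases before that of *Il1b*. Of 32851 windows of 250 bases, 12.4% held this motif on either strand. The *Il1a* window also held an AP-1 motif (TGANTCA, in 6.75% of windows) at 12 to 6 bases before the start. The *Il1r1* window held a C/EBP motif (TTNNGCAA, in 9.56% of windows) at 133 to 126 bases before the start, and the window of its second, downstream start held no match. The *Il1r2* window held none of the motifs searched, which also included an NF-κB motif (in 1.41% of windows) and a STAT6 motif (in 5.85%). A match describes the letters of a window and shows neither a site in use nor a cause.

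**Figure D1:**
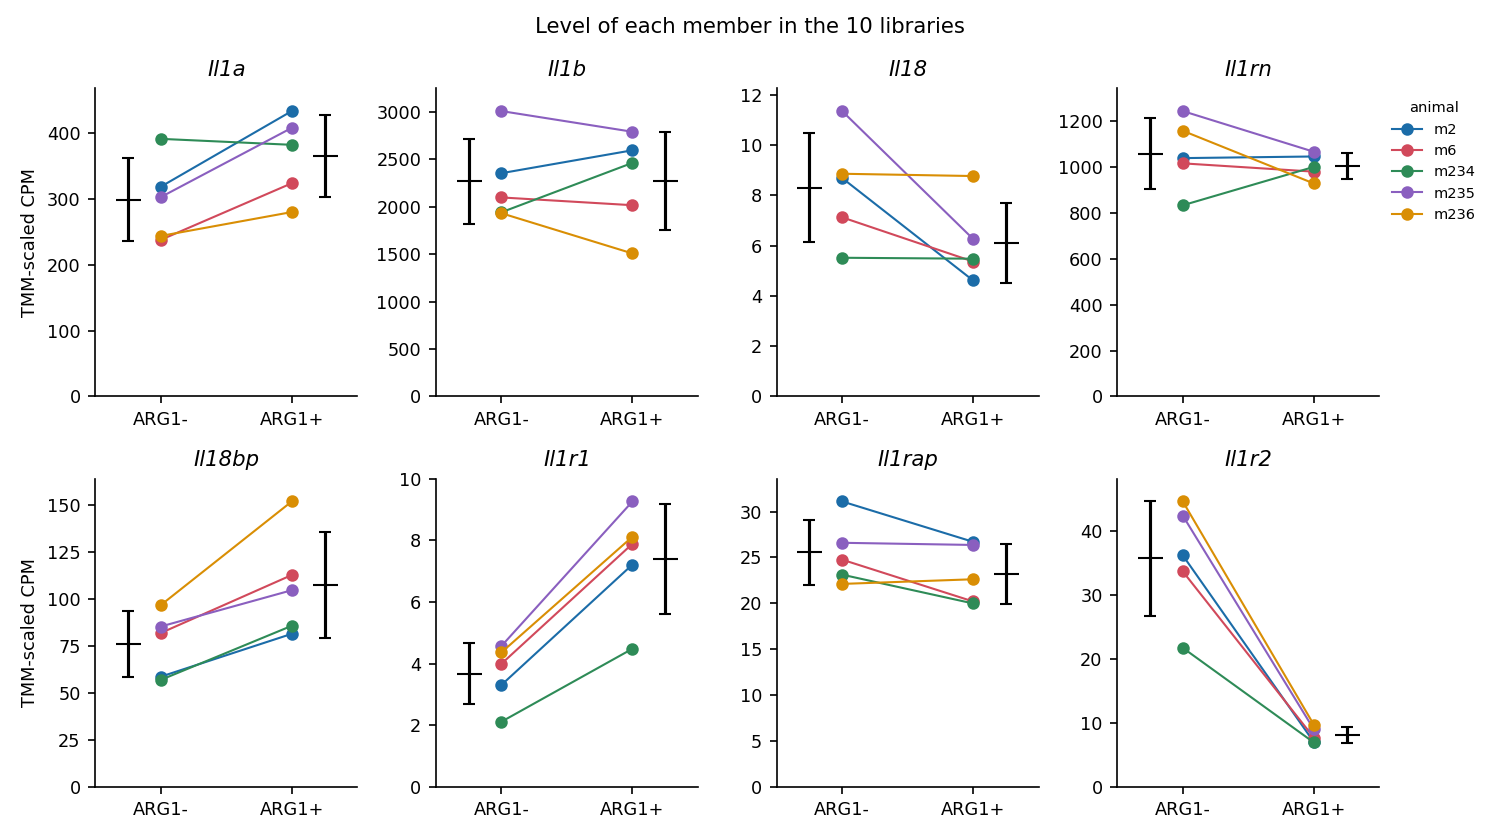
Level of the 8 members in TMM-scaled CPM (vertical axes, each from 0) in the ARG1- and ARG1+ library of each of 5 animals (colours, joined by lines), with the mean and SD of each group in black. All 5 lines of *Il1r2* run down from ARG1- to ARG1+ and all 5 of *Il1r1* run up, whereas the lines of *Il1b* cross.

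Levels are given below as CPM scaled by the trimmed mean of M values (TMM), in the order m2, m6, m234, m235 and m236. *Il1b*, the secreted ligand most abundant here, was at 2596, 2017, 2463, 2791 and 1508 CPM in ARG1+ cells and at 2354, 2098, 1942, 3009 and 1932 CPM in ARG1- cells. The means were 2275 ± 515 and 2267 ± 449 CPM (SD, n = 5 each). The groups overlapped throughout, and the fitted log2 difference of ARG1+ from ARG1- cells was 0.0044 ± 0.169 (SE). Within animals, the log2 difference was above 0 in m2 and m234 and below 0 in the other 3, from -0.36 in m236 to 0.34 in m234. *Il1b* was a strongly expressed gene of both sorted fractions, at rank 30 of the 13740 tested genes by mean CPM in ARG1+ and rank 31 in ARG1- cells.

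*Il1a* encodes a ligand that is active without cleavage and is often kept in the cell. Its levels were 433, 324, 382, 408 and 280 CPM in ARG1+ cells and 319, 238, 391, 303 and 244 CPM in ARG1- cells. ARG1+ cells had the higher level in 4 of 5 animals by 0.20 to 0.45 on the log2 scale, and in m234 the levels were nearly equal (-0.03). The fitted log2 difference was 0.29 ± 0.149, with means of 365 ± 62.7 and 299 ± 62.6 CPM. Per kb of exon, *Il1b* exceeded *Il1a* 8.99 ± 0.791-fold in ARG1+ and 11.4 ± 2.71-fold in ARG1- cells, and the ratio was lower in ARG1+ cells of 4 animals. The fraction of *Il1a* exon bases overlapped by the antisense gene *Gm14023* was 11.2%, and that gene averaged 0.184 CPM in ARG1+ against 0.414 CPM in ARG1- cells.

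*Il18*, the third ligand, was low. It had levels of 4.61, 5.37, 5.48, 6.27 and 8.77 CPM in ARG1+ cells and at 8.69, 7.13, 5.52, 11.4 and 8.86 CPM in ARG1- cells. All 5 animals had the lower level in ARG1+ cells, but the log2 difference was -0.0096 in m234 and -0.01 in m236, and the groups overlapped. The fitted log2 difference was -0.47 ± 0.199. In the shallow ARG1- library of m234 the *Il18* level rested on 47 counts, with an exact Poisson 95% interval of 4.05 to 7.34 CPM, which covers counting error only.

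Of the genes that restrain the ligands, *Il1rn* was the more abundant, at rank 103 of the tested genes in ARG1+ and rank 87 in ARG1- cells. It was at 1045, 979, 999.9, 1066 and 928 CPM in ARG1+ cells and at 1038, 1015, 833, 1243 and 1157 CPM in ARG1- cells. The range in ARG1+ cells lay inside that in ARG1- cells, and the fitted log2 difference was -0.08 ± 0.0964. Within animals the difference ran from -0.32 in m236 to 0.26 in m234. The coefficient of variation of *Il1rn* across animals was 5.45% in ARG1+ and 14.7% in ARG1- cells, in ARG1+ cells the lowest of the 8 members.

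*Il18bp* encodes the soluble binding protein of IL-18. Its levels were 81.5, 113, 85.8, 105 and 152 CPM in ARG1+ cells and 58.7, 81.9, 56.9, 85.4 and 96.8 CPM in ARG1- cells. Each animal had the higher level in ARG1+ cells, by 0.29 to 0.65 on the log2 scale, although the lowest ARG1+ libraries lay inside the ARG1- range. The fitted log2 difference was 0.49 ± 0.185. *Numa1* on the opposite strand overlaps 2.64% of the *Il18bp* exon bases and had 143 CPM in ARG1+ against 136 CPM in ARG1- cells. The sources used here do not state if strand entered the counting.

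Among the receptors, the signalling chain *Il1r1* had the lowest mean CPM in both groups, although in ARG1+ cells of m2, m6 and m235 it was slightly above *Il1r2*. It was at 7.21, 7.89, 4.48, 9.26 and 8.12 CPM in ARG1+ cells and at 3.31, 3.99, 2.11, 4.57 and 4.36 CPM in ARG1- cells. The ARG1+ library of m234, the lowest of its group, fell just below the highest ARG1- library, which is the only overlap of the groups. Within animals the log2 difference was 0.89 to 1.11, the narrowest spread of any member relative to its size. The fitted log2 difference was 0.97 ± 0.210, from means of 7.39 ± 1.79 and 3.67 ± 0.994 CPM. These levels rested on 139 to 306 counts in ARG1+ libraries and on 105 to 144 in ARG1- libraries, except for 18 counts in m234 (exact Poisson 95% interval 1.25 to 3.34 CPM).

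The accessory chain *Il1rap*, shared by the signalling receptor and the decoy, was at 26.7, 20.2, 20.0, 26.4 and 22.6 CPM in ARG1+ cells. It was at 31.1, 24.8, 23.1, 26.6 and 22.1 CPM in ARG1- cells. The groups overlapped, and the fitted log2 difference was -0.15 ± 0.113. The level was lower in ARG1+ cells of 4 animals, by 0.29 at most on the log2 scale.

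The decoy *Il1r2* was at 7.01, 7.69, 6.93, 8.99 and 9.72 CPM in ARG1+ cells and at 36.2, 33.7, 21.7, 42.4 and 44.6 CPM in ARG1- cells. All ARG1+ libraries lay below all ARG1- libraries, and the nearest values of the groups were 9.72 CPM in m236 and 21.7 CPM in m234. The fitted log2 difference was -2.16 ± 0.174, from means of 8.07 ± 1.24 and 35.7 ± 9.0 CPM. Within animals it ran from -2.36 in m2 to -1.64 in m234, the animal with the shallow ARG1- library, where *Il1r2* had 185 counts. Without that library the fitted log2 difference was -2.28. By mean CPM, *Il1r2* ranked 9148 of the 13740 tested genes in ARG1+ and 4922 in ARG1- cells. A transcript on the same strand inside *Il1r2*, *Gm37347*, which was looked up after the values were seen, was at 1.14 ± 0.214 and 4.20 ± 1.21 CPM.

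**Figure D2:**
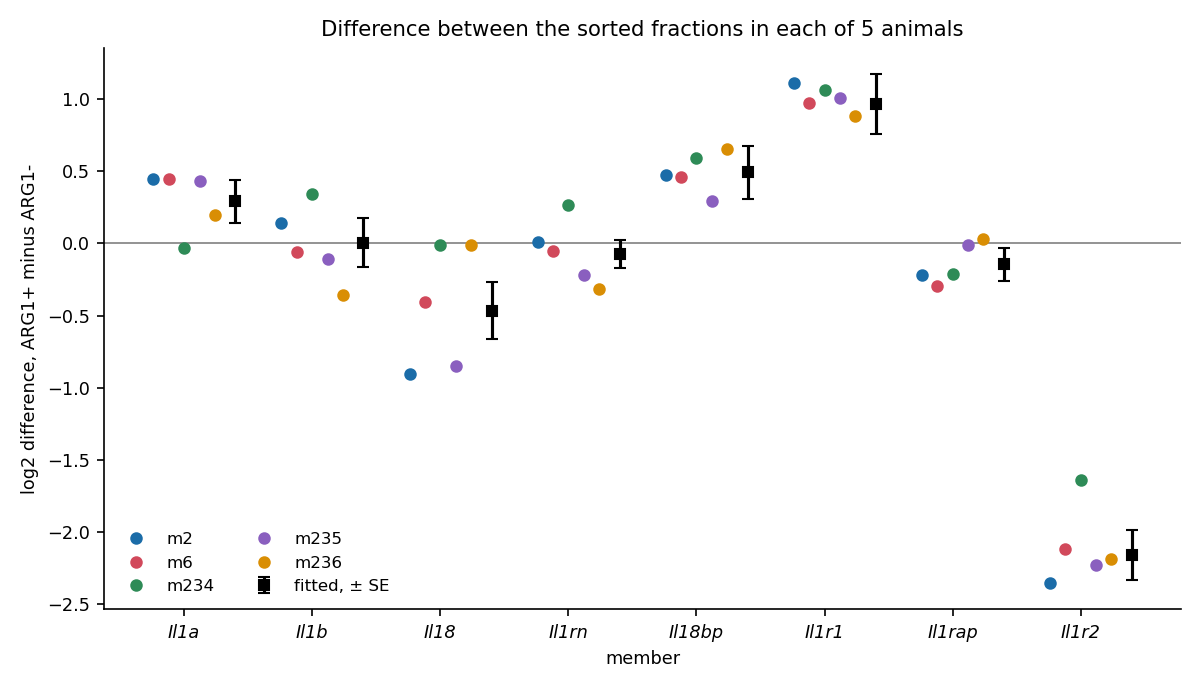
Log2 difference of ARG1+ from ARG1- cells (vertical axis) for each member within each of 5 animals (coloured points) and as fitted over all 10 libraries with its SE (black squares). *Il1r2* stands from -2.36 to -1.64 and *Il1r1* from 0.89 to 1.11, and the points of *Il1b* and *Il1rn* lie on both sides of 0.

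Read against all tested genes, 1 member (*Il1r2*) was lower past a false discovery rate (FDR) of 0.05 and an absolute log2 difference of 1, limits that 0.888% of tested genes passed downward, and 0 were higher past both, against 0.560% of tested genes. Past the FDR limit alone stood *Il1r1* upward (6.82% of tested genes) and *Il1r2* downward (6.15%). With the animal as a replicate block, *Il1a*, *Il1r1* and *Il18bp* were past it upward (16.8% of tested genes) and *Il1r2* and *Il18* downward (18.3%), and *Il1r1* at a log2 difference of 1.01 then passed both limits upward (0.662% of tested genes) and *Il1r2* downward (1.55%). *Il1r2* alone had groups that did not overlap, in the lower direction (5.20% of tested genes), and no member did in the higher direction (6.16%). *Il1r1* and *Il18bp* were higher in ARG1+ cells of all 5 animals (20.1% of tested genes), and *Il1r2* and *Il18* lower (21.0%). Since the members were selected on this contrast, nothing is read from these counts. The median log2 difference was -0.04 over the 8 members and -0.0022 over all tested genes.

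The members spanned more than 3 orders of magnitude when compared per length, as CPM per kb of annotated exon. In ARG1- cells the order was *Il1b* (1672), *Il1rn* (391), *Il1a* (151), *Il1r2* (25.2), *Il18bp* (25.1), *Il18* (8.06), *Il1rap* (2.97) and *Il1r1* (0.600). In ARG1+ cells *Il1r2* stood below *Il18*, and the order was *Il1b* (1678), *Il1rn* (371), *Il1a* (185), *Il18bp* (35.5), *Il18* (5.92), *Il1r2* (5.69), *Il1rap* (2.69) and *Il1r1* (1.21). Neighbours in these orders had ranges over the 5 libraries that did not meet, with the exception of *Il1r2* and *Il18bp* in ARG1- cells and of *Il18* and *Il1r2* in ARG1+ cells. Dividing by the longest transcript in place of all exons raised *Il1rap* 1.90-fold, to 5.13 in ARG1+ and 5.65 in ARG1- cells, so that it then overlapped *Il1r2* in ARG1+ and *Il18* in ARG1- cells, and *Il18bp* then stood above *Il1r2* in ARG1- cells. *Il1b* made up 73.2 ± 3.67% of the summed level per kb of the 3 ligands, *Il1rn* and *Il18bp* in ARG1+ cells and 74.1 ± 2.48% in ARG1- cells.

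**Figure D3:**
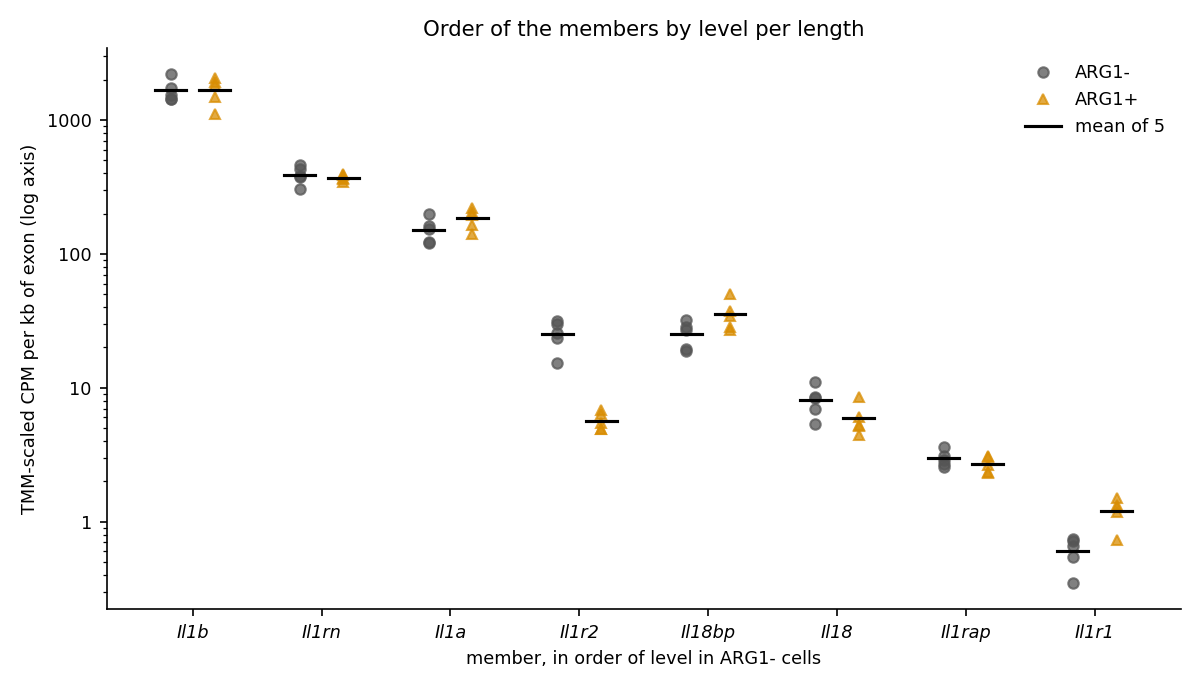
TMM-scaled CPM per kb of exon (vertical axis, log scale) of the 8 members in the 5 ARG1- libraries (grey circles) and 5 ARG1+ libraries (orange triangles), with group means as bars. The ligands *Il1b* and *Il1a* and the antagonist *Il1rn* lie above 100, all receptors lie below 40, and *Il1r2* drops from a mean of 25.2 to 5.69.

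Ratios of members with opposing roles, taken per kb within each library, describe how the decoy and the antagonist stood against their partners. The ratio of *Il1r2* to *Il1r1* was 47.2, 36.3, 44.3, 40.0 and 44.0 in ARG1- cells and 4.19, 4.20, 6.67, 4.18 and 5.16 in ARG1+ cells. Per kb, the RNA of the decoy thus exceeded that of the signalling chain in all 10 libraries. The share of the decoy in the sum of the 2 receptors per kb was 97.7 ± 0.237% in ARG1- and 82.6 ± 2.77% in ARG1+ cells. Against the accessory chain, *Il1r2* was at 8.57 ± 2.51 in ARG1- and 2.13 ± 0.371 in ARG1+ cells, without overlap. The ratio of *Il18bp* to *Il18* was 3.20 ± 0.725 in ARG1- and 6.02 ± 0.689 in ARG1+ cells, also without overlap, with the higher value in ARG1+ cells of each animal. The ratio of *Il1rn* to the sum of *Il1a* and *Il1b* was nearly level, at 0.217 ± 0.0358 in ARG1- and 0.206 ± 0.0414 in ARG1+ cells. It was lower in ARG1+ cells of all 5 animals, but its range across animals was far wider than the difference. These ratios use the same contrast as the choice of the members and were not tested.

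**Figure D4:**
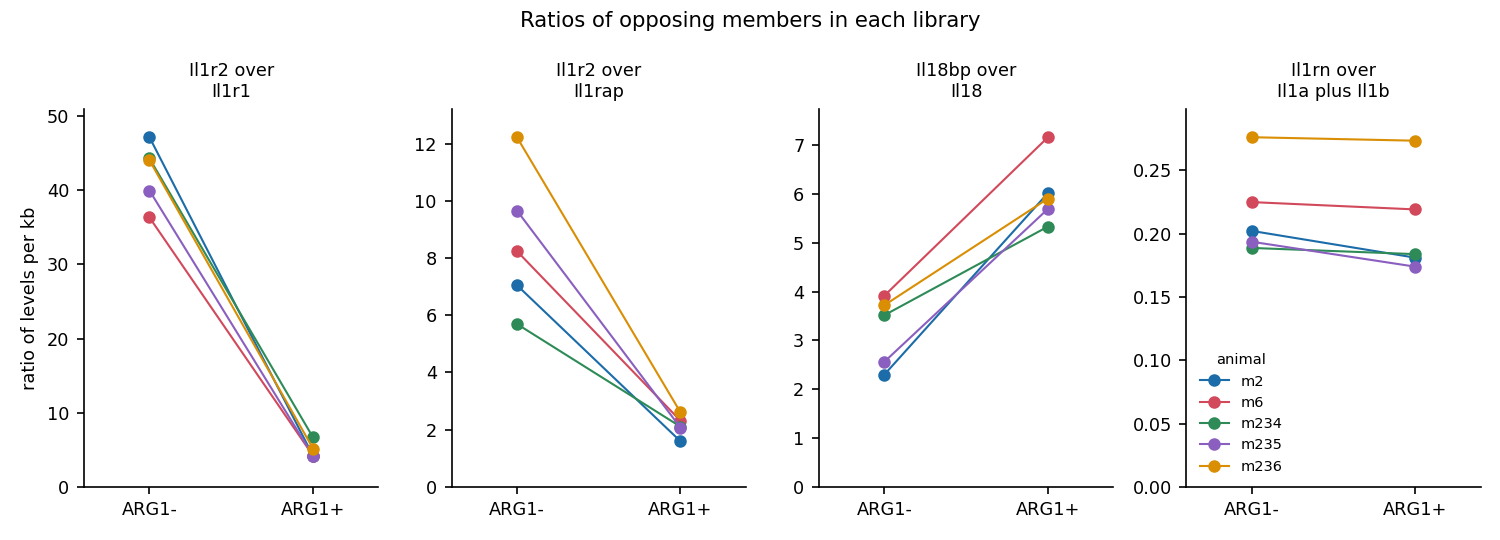
Ratios of levels per kb (vertical axes, each from 0) in the ARG1- and ARG1+ library of each of 5 animals (colours). The ratio of *Il1r2* to *Il1r1* falls from 36.3 to 47.2 in ARG1- cells to 4.18 to 6.67 in ARG1+ cells, that of *Il18bp* to *Il18* is higher in ARG1+ cells, and that of *Il1rn* to the IL-1 ligands is nearly flat within animals.

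The choice of members did not use the differences between animals, so these were tested. With the group in the fit, edgeR's quasi-likelihood F test found a difference between the 5 animals for 6 of 8 members at an FDR below 0.05, against 20.8% of the 13740 tested genes. *Il18bp* had the lowest adjusted p (7.22e-04), with its 2 highest levels per group in the libraries of m236 and of m6 or m235. *Il1r1* (adjusted p = 0.0092) was lowest in m234 in both groups and highest in m235 in both. *Il1a* (0.0122) was among the 2 lowest in m236 and m6 in both groups. *Il1b* (0.0197) was highest in m235 and lowest in m236 in both groups, so m236 combined the lowest *Il1b* with the highest *Il18bp* of the 5 animals. *Il1r2* (0.0227) was lowest in m234 and highest in m236 in both groups. *Il1rap* had an adjusted p of 0.0297, and *Il1rn* (0.269) and *Il18* (0.156) did not pass the limit.

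In several members these calls between animals were lost when 1 animal was left out. Such a fit also has fewer libraries, so it cannot tell a lack of power from dependence on that animal. Without m235, 3 of 8 members passed the limit, and 1029 genes in all, against 2864 genes with all animals. *Il1b* lost its call without m235 (adjusted p = 0.146), *Il1r1* without m234 (0.125), *Il1a* without m236 (0.0534), *Il1r2* without m235 (0.0655) or m236 (0.0663), and *Il1rap* without m2 (0.174) or m235 (0.0650), all by the same edgeR test. *Il18bp* passed the limit without any 1 of the animals. An animal and all that was handled together with it cannot be told apart in this design. The summed level of the monocyte markers also differed between animals. It ran from 2954 to 9759 CPM in ARG1+ and from 2969 to 8609 CPM in ARG1- cells, lowest in m234 and highest in m236 in both groups, and its part in these calls was not tested. *Chil3*, the most abundant gene of that list, alone ran from 1247 to 6779 CPM in ARG1+ and from 891 to 5408 CPM in ARG1- cells. The sum thus largely follows this gene.

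The other genes of the pathway were taken from 4 lists, of which 87 of 92 names were in the table and 69 genes were tested. Of these, 4 were higher and 11 lower in ARG1+ cells at an FDR below 0.05, where 6.82% and 6.15% of all tested genes were, and their median log2 difference was -0.02. With the animal as a replicate block, 19 were higher and 16 lower, where 16.8% and 18.3% of all tested genes were. The counts are given as a description of the lists.

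Relatives of the members that share the receptor cluster moved in both directions. *Il1rl2*, the receptor for IL-36 and the most abundant of the 4 tested genes in its list, had 48.5 ± 8.16 CPM in ARG1+ against 32.5 ± 3.08 CPM in ARG1- cells (log2 difference 0.57 ± 0.110, adjusted p = 0.00659), and it lies directly after *Il1r1*. *Il18rap*, the accessory chain of the IL-18 receptor at the far end of the cluster, was at 6.05 ± 1.03 and 10.8 ± 1.36 CPM (-0.83 ± 0.130, 0.00228). Its binding chain *Il18r1* averaged 0.129 and 0.497 CPM and the IL-33 receptor *Il1rl1* 0.103 and 0.412 CPM, both below the filter. The cluster on chromosome 1 thus held *Il1r2* and *Il18rap* at lower and *Il1r1* and *Il1rl2* at higher levels in ARG1+ cells.

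Of 27 tested genes of IL-1 receptor signalling, 6 passed the limit, all of them lower, with a median log2 difference of -0.03 over the list. With the replicate block 5 were higher and 8 lower. *Nfkb1*, a subunit of NF-κB, had the largest of these differences (280 against 378 CPM, -0.43 ± 0.0758, adjusted p = 0.00417). The other 5, chosen after their values were seen, were the adaptor *Myd88*, *Irak2*, *Traf6*, *Ikbkb* and *Rela*, with log2 differences of -0.32 to -0.18. Of these, *Myd88* lost its call without m2 or m6 (adjusted p = 0.0682 and 0.0836), and *Traf6*, *Ikbkb* and *Rela* lost theirs without several single libraries or animals, m2 and m6 among them. Those fits held no replicate block. With the block and all animals, the adjusted p (edgeR) was 1.47e-04 for *Myd88*, 0.00566 for *Traf6*, 0.00307 for *Ikbkb* and 0.00115 for *Rela*. *Sqstm1*, the most abundant gene of the list, had 709 CPM in ARG1+ against 755 CPM in ARG1- cells and did not pass the limit.

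Of 20 tested genes of IL-1 and IL-18 maturation and release, 2 passed the limit, both lower, whereas with the replicate block 5 were higher and 3 lower. *Mefv* (pyrin) had 48.8 CPM in ARG1+ against 90.5 CPM in ARG1- cells (-0.90 ± 0.0901, adjusted p = 1.83e-04), and *Gsdmd*, whose product forms the pore that lets IL-1β out of the cell, had a log2 difference of -0.34 ± 0.0534 (0.00212). *Nlrp3*, the most abundant gene of this list, was at 548 and 514 CPM, and *Casp1*, whose product cuts the precursors of IL-1β and IL-18, at 59.9 and 57.2 CPM, neither past the limit.

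Genes known to respond to IL-1 were mixed, with 3 higher and 2 lower of 18 tested, and 8 higher and 4 lower with the replicate block. The neutrophil chemokine *Cxcl1* had 104 CPM in ARG1+ against 41.6 CPM in ARG1- cells (log2 difference 1.31 ± 0.172, adjusted p = 8.95e-04), *Cxcl3* at 55.6 and 26.5 CPM (1.04 ± 0.268, 0.0262) and *Cxcl2*, the most abundant gene of the list, at 1930 and 1256 CPM (0.62 ± 0.114, 0.00538). *Lcn2* was lower, at 1.93 and 5.27 CPM (-1.48 ± 0.316, 0.0114), as was *Nfkbie*, an inhibitor of NF-κB (-0.41 ± 0.0763). *Cxcl3* lost its call when any of m2, m6 and m236 was left out (adjusted p = 0.0636, 0.0844 and 0.0759) or any of 4 single libraries (the ARG1+ ones of m2 and m235 and the ARG1- ones of m6 and m236, 0.0532 to 0.0676), and *Lcn2* without m2 or m6 (0.0664 and 0.0785). Those fits held no replicate block. With the block and all animals, the adjusted p was 2.88e-06 for *Cxcl3* and 7.92e-04 for *Lcn2* (edgeR). *Il6* had a log2 difference of 0.95 ± 0.330 that did not pass the limit in this fit (adjusted p = 0.0776, and 1.42e-04 with the replicate block, edgeR). It was higher in ARG1+ cells of all 5 animals.

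**Figure D5:**
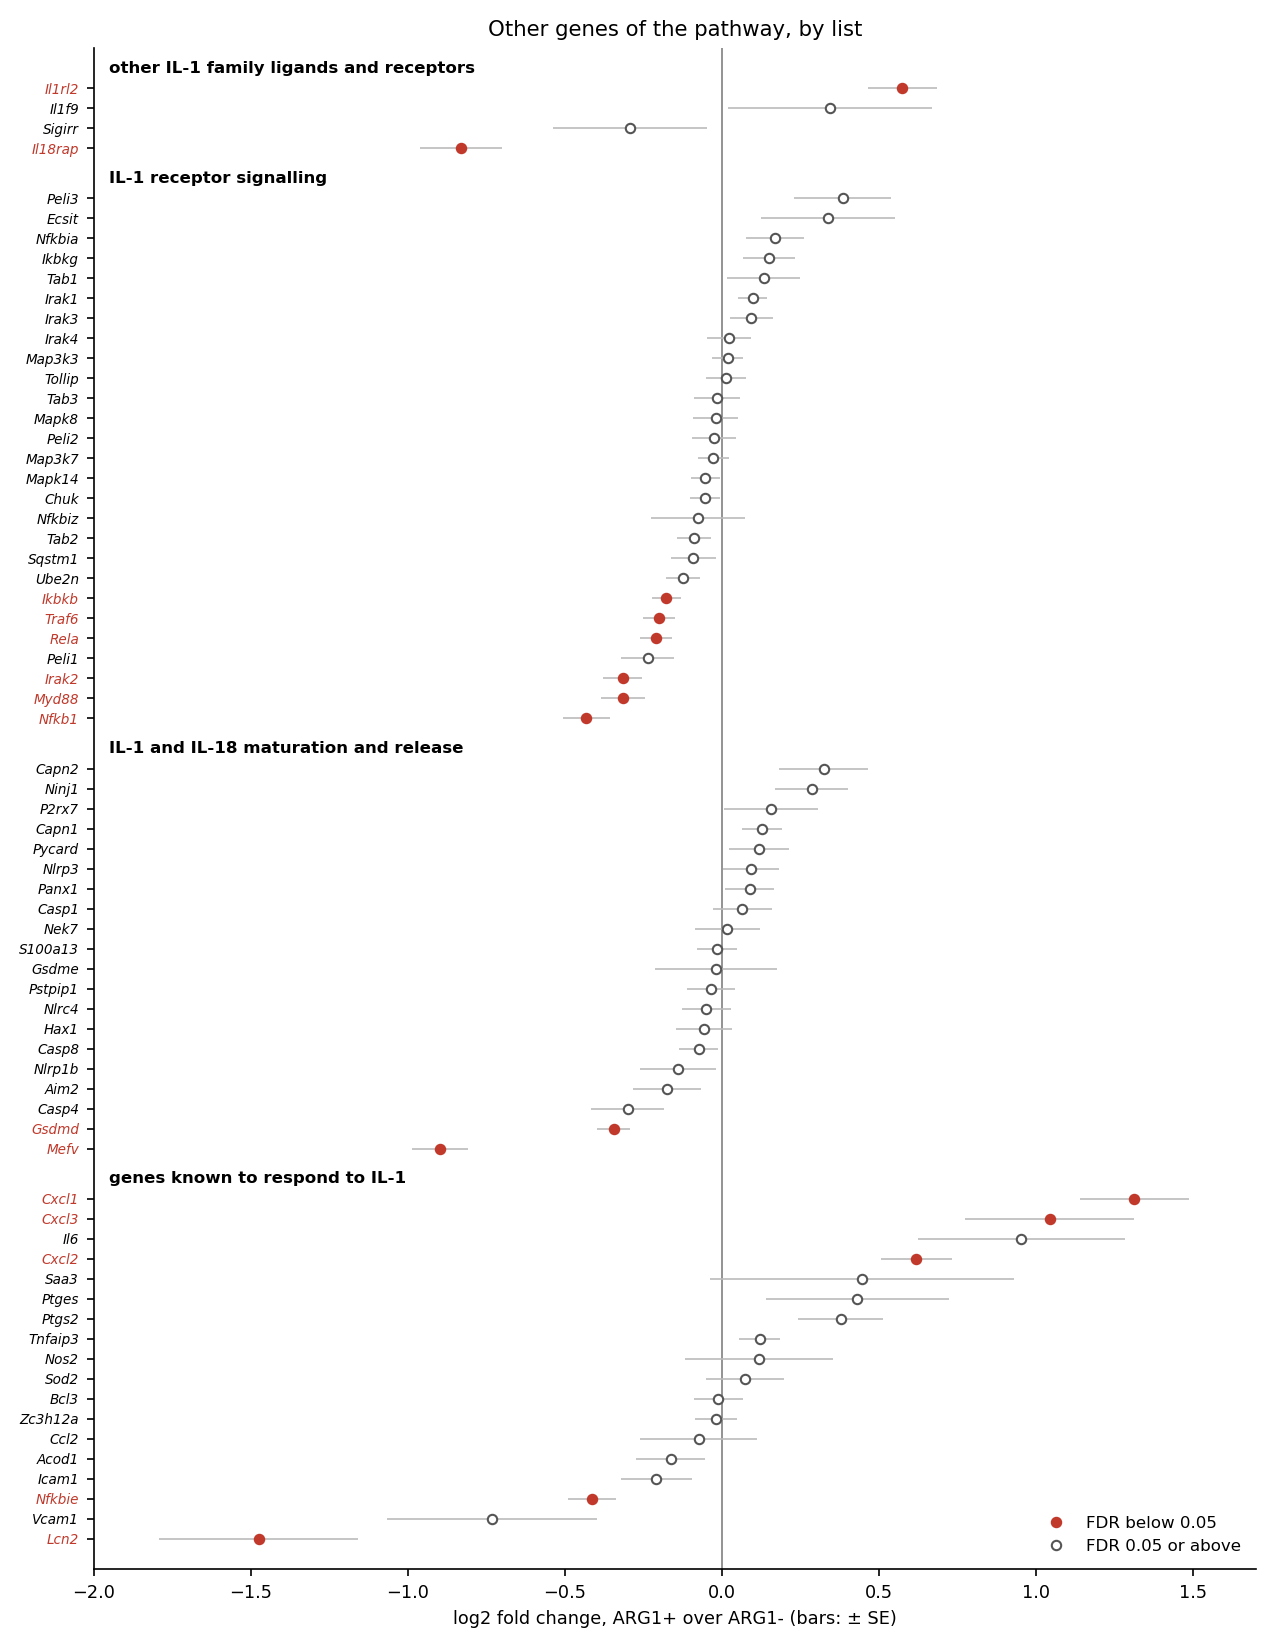
Log2 difference of ARG1+ from ARG1- cells with its SE (horizontal axis) for each of the 69 tested genes of the 4 pathway lists, with genes past an FDR of 0.05 in the fit without the replicate block filled in red. The 6 red genes of IL-1 receptor signalling all lie below 0, and the red responders lie on both sides, from *Lcn2* at -1.48 to *Cxcl1* at 1.31.

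Markers of several other cell types differed along with *Il1r2*. Of 10 tested dendritic cell markers, 7 passed the limit, all lower in ARG1+ cells, and the summed level of the list was 20.3 to 41.8 CPM in ARG1+ and 54.3 to 160 CPM in ARG1- libraries. *Siglech*, at 7.90 and 24.8 CPM, was the most abundant gene of this list in ARG1- cells. *Clec9a*, the most abundant in ARG1+ cells, went the other way, at 13.9 and 11.7 CPM. It was higher in ARG1+ cells of 4 animals, and its log2 difference of 0.28 ± 0.284 did not pass the limit. The 6 past both limits were *Flt3*, *Zbtb46*, *Dpp4*, *Ccr7*, *Ccl17* and *Ccl22*, and *Xcr1* and *Cd209a* averaged at most 0.148 CPM. Of 9 monocyte markers, 4 were lower and 0 higher past the FDR limit, and 6 were lower and 3 higher with the replicate block. *Ccr2*, *Plac8* and *Vcan* were among those that fell past both limits, while *Chil3*, the most abundant, was at 3536 and 2793 CPM. *F13a1* was at 1019 and 594 CPM, higher in ARG1+ cells of all 5 animals. Its log2 difference was 0.78 ± 0.238 (adjusted p = 0.0511, and 1.62e-05 with the replicate block, edgeR). The highest sum of the dendritic cell markers was in the ARG1- library of m234, where *Siglech*, also on the microglial list, made up 70.8 CPM. Without *Siglech*, a choice made after seeing the data, the dendritic sums were 15.5 to 34.6 CPM in ARG1+ libraries. In ARG1- libraries they were 41.8 to 91.3 CPM, with m2 and m234 the highest. The part of these cells in the level of *Il1r2* was not tested.

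Neutrophils, in which *Il1r2* is well known, were taken out by the gate, and of their 12 markers 4 were tested. *S100a9* fell from 2.44 to 0.242 CPM, *S100a8* was at 23.9 and 20.0 CPM in ARG1+ and ARG1- cells, and *Csf3r*, the most abundant over the 10 libraries, at 144 and 183 CPM. *Mmp8* was at 206 ± 67.6 and 114 ± 47.9 CPM, higher in ARG1+ cells of all 5 animals with a log2 difference of 0.84 ± 0.303 (adjusted p = 0.0878, and 4.23e-05 with the replicate block, edgeR). *Ly6g* and *Retnlg* averaged at most 0.057 CPM, and the summed level was 301 to 452 CPM in ARG1+ and 262 to 371 CPM in ARG1- cells. Below the filter, *Cxcr2* averaged 0.141 CPM in ARG1+ against 0.826 CPM in ARG1- cells and *Ltf* 0.254 against 0.483 CPM. Both were lower in ARG1+ cells of every animal. *Elane* and *Ngp* also averaged lower in ARG1+ cells, and *Mpo* (0.702 against 0.633 CPM) and *Camp* (0.156 against 0.131 CPM) slightly higher. Of 4 tested B and plasma cell markers, *Ighm*, *Igkc* and *Jchain* fell (summed level 5.84 to 17.6 against 32.2 to 68.2 CPM), and of 8 mast cell and basophil markers *Kit* and *Hdc* fell while the other 6 had no counts in any library. Of 8 T cell markers 2 were tested, *Il7r* rose (229 and 123 CPM) and *Cd3e* was near 0. The part of these markers in the members' levels was likewise not tested.

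Among resident cells, 0 of 10 microglial markers passed the FDR limit in edgeR, where 6 fell at an unadjusted p below 0.05, and 0 passed in limma-trend and 2 in DESeq2, with summed levels of 775 to 1202 CPM in ARG1+ and 854 to 3287 CPM in ARG1- cells, the highest in the ARG1- library of m234, and with the replicate block 8 of the 10 fell. Of 4 tested markers of central nervous system-associated macrophages, *Mrc1*, *Pf4* and *Stab1* rose, whereas *Lyve1* and *Cd163* averaged at most 0.097 CPM. The summed level of all 8 genes of this list was 967 to 1317 CPM in ARG1+ and 597 to 799 CPM in ARG1- cells. *Kdr* fell among 3 tested endothelial and stromal markers, 0 of 4 tested neural markers passed the limit in edgeR or limma-trend (1 by unadjusted p and 1 in DESeq2), and none of the 8 markers of natural killer and innate lymphoid cells reached the filter. The part of these lists in the levels of *Il1r1* and *Il18bp* was not tested.

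The genes whose levels followed *Il1b* and *Il1r2* most closely across the 10 libraries, after the mean of each group was taken out, are given by Pearson's r as a description. For *Il1b* they were *Htr7* (r = 0.950), *Cd53* (0.949), *Scimp* (0.947), *Klf10* (0.946) and *Mmp12* (0.942). For *Il1r2* they were *Bud13* (0.974), *Gm6474* (0.970), *Atp6v1g1* (0.970), *Adora2b* (0.967) and *Ccdc127* (0.964). The libraries of an animal share that animal, so the 10 points are not independent. Between members, the same measure was highest for *Il1r2* with *Il18* (0.871) and *Il1r2* with *Il1r1* (0.839), and lowest for *Il1a* with *Il18bp* (-0.857), while *Il1b* and *Il1r2* were nearly unrelated (0.0325). Within each group, the decoy and the signalling chain were both lowest in m234 and had their highest levels in m235 and m236. The top animal was m236 for *Il1r2* and m235 for *Il1r1*. In the shallow ARG1- library of m234, *Il1r1* rested on 18 counts, and the correlation without m234 was not computed. Between the groups, the 2 receptors differed in opposite directions.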

How the data were processed

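RNA of 5 ARG1+ and 5 ARG1- cell fractions, sorted from the same 5 mice, was sequenced by the authors as 50-base single-end reads from a strand-specific kit, aligned to GRCm38 with STAR (2.7.10b in the submitters' processing notes), and counted per gene of Ensembl release 100 with summarizeOverlaps in Union mode, which drops a read that meets more than 1 feature. The deposited values are raw counts per gene, whole numbers without normalization.

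The filter kept genes of CPM above 1 in 3 or more libraries, which were fitted with edgeR 4.0.16 (R 4.3.3), TMM library sizes, the quasi-likelihood F test and Benjamini-Hochberg adjustment over all 13740 genes. The limits were an FDR of 0.05 and, where stated, an absolute log2 fold change of 1. The authors used limma-trend, run here as an alternative (limma 3.58.1), beside DESeq2 1.42.0, other library sizes and filters, the animal as a replicate block, and fits that each left out 1 library or animal. Levels in each library are CPM with TMM factors, and differences within animals are of log2 CPM with a prior count of 2. Lengths came from GENCODE vM21 basic, an annotation of the same build but not the one counted. RefSeq windows were matched by symbol, and 8 of 8 members had one. Depth limits the precision of low genes, and intervals cover counting error only.

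The fractions of an animal pair by its number in the labels. Residuals from the group means correlated by 0.361 to 0.664 across genes within the 5 animals and by at most 0.0675 between animals.

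The members and lists were chosen with earlier results of these data known. Named were all 8 members, of each pathway list the genes past both limits, the most abundant gene and the gene with the largest difference past the FDR limit, of each marker list discussed the most abundant gene and those past both limits, and for *Il1b* and *Il1r2* the 5 genes of highest correlation. Other genes of these lists that are named were chosen after their values were seen. Of the marker genes that this rule names, 1 is not reported here.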

Additional observations from a re-analysis of the deposited data

How the results depend on the processing

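Over 22 alternatives, the log2 difference of *Il1r2* ran from -2.28 to -2.07 and that of *Il1r1* from 0.87 to 1.10. The smaller differences moved more relative to their size, with *Il18* from -0.63 (without the ARG1+ library of m236) to -0.33, *Il18bp* from 0.33 to 0.59, *Il1a* from 0.22 to 0.41, *Il1rap* from -0.20 to -0.06 (without the ARG1- library of m2) and *Il1rn* from -0.15 (without m234) to -0.0064 (without the ARG1- library of m235), and the sign changed for *Il1b* alone, in 11 of 22, within -0.08 to 0.13. *Il1r1* lay close to the fold change limit. The count of members past both limits upward was therefore 1 in place of 0 with limma-trend, with the replicate block and without the fold change limit, and 0 to 1 when libraries or animals were left out, and the count downward was 1 in each. Genes past both limits numbered 77 higher and 122 lower. Without the fold change limit they were 937 and 845, and the lower ones were 186 with DESeq2, 190 without a filter on low counts and 213 with the replicate block. Leaving out libraries or animals gave 53 to 87 higher and 68 to 168 lower genes, the fewest lower without m2 (68) or m6 (76). Pathway genes past the FDR limit were 4 higher and 11 lower. They were 19 higher with the replicate block, 2 higher and 1 lower with the fold change limit, and 3 to 6 higher and 6 to 12 lower when libraries or animals were left out. The animal effect was called for 2864 genes, for 4934 without a filter, and for 1029 to 3988 with an animal left out, with 3 to 6 of the 8 members. The causes of these shifts were not tested, other than fewer samples or genes where the alternative itself removes them. Low depth limits *Il1r1* and *Il18* in the ARG1- library of m234 most.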
